A study of Mus musculus with 4 samples.

Results

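In all, 10 genes of the olfactory bulb were followed across cortex samples of mice given TCQA or water, and all 10 had their highest level on the same array, the second of the TCQA group. The genes are markers of the bulb's output neurons, the mitral and tufted cells (Eomes, Cdhr1, Tbx21, Shisa3 and Nmb), and of its local interneurons, the periglomerular and granule cells (Th, Ddc, Meis2, Sp8 and Tshz1). They were chosen by symbol with their levels on these arrays already known, so their levels are given as a description, and calls among them from the fit over all transcript clusters support nothing. Each of them had 1 transcript cluster (the array's unit for a gene's transcripts), 10 of the 19572 that carry a gene symbol.

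RNA came from brain cortex of male SAMR1 mice, a strain bred as the normally ageing partner of senescence-prone mouse lines. In the TCQA group, mice aged 11 months were dosed orally with TCQA (tricaffeoylquinic acid, a plant polyphenol) at 5 mg/kg daily for 1 month. In the water group, mice of the same age were given MilliQ water by the same schedule. Both groups had lived in single cages for the 4 months before dosing, from an age of 7 months, and the labels name no other allele or agent. Each group was measured on 2 Clariom S mouse arrays, called TCQA 1, TCQA 2, water 1 and water 2 after the numbers in the sample labels. Whether each array stands for 1 animal or for pooled animals is not said in the labels, so the p-values below rest on the spread among these samples alone, and that spread may be technical.

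The olfactory bulb is the first relay of smell in the brain and lies in front of the cortex. Mitral and tufted cells are glutamatergic neurons that receive the input of olfactory sensory axons in the glomeruli and send it on to the olfactory cortex. Periglomerular cells around the glomeruli are GABAergic, and some of them also make dopamine. Granule cells are GABAergic neurons without axons that inhibit mitral and tufted cells through their dendrites, and both interneuron types are renewed in adult rodents by neuroblasts that reach the bulb along the rostral migratory stream.

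Levels are log2 signals, on which a difference of 1 is a 2-fold change. Array medians ranged from 6.98 to 7.04, and each pair of arrays correlated across transcript clusters with r between 0.990 and 0.993. The arrays' negative control probe sets had a median of 6.98, and a level below it is called dim here, since a fold taken against it is uncertain in size. Their 95th percentile was 11.06, so a level above the median is not thereby clear of background. Of the 10 bulb genes only Meis2 had levels above that percentile. Among 9738 transcript clusters with a mean at or below that median, 95% of the differences between the arrays of a group were under 0.91 in size, both between the TCQA and between the water arrays. Among 9834 brighter ones the corresponding sizes were 0.63 for the TCQA pair and 0.72 for the water pair. Differences of 0.91 for dim genes and 0.72 for brighter ones serve below as the spread between arrays of a group. Markers of cortical excitatory neurons, the labelled tissue, lay at or above the negative control median on all 4 arrays for 10 of 12 measured genes, against 9330 of all 19572 transcript clusters. The means of these markers were 10.6 in both TCQA arrays, against 10.02 in water 1 and 10.45 in water 2.

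Being highest on TCQA 2 was a property of 27.4% of all named transcript clusters, and all 10 bulb genes had it; nothing is read from that count, since the genes were chosen from these levels. Eomes, Cdhr1, Th and Sp8 stood more than 1 log2 unit above the highest of the other 3 arrays, a distance that 0.25% of transcript clusters reached. In Nmb and Meis2, by contrast, TCQA 2 exceeded the next array by 0.04 and 0.03. In bulk RNA of this kind, a difference in the number of cells of a type and one in the RNA per cell cannot be told apart.

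**Figure D1:**
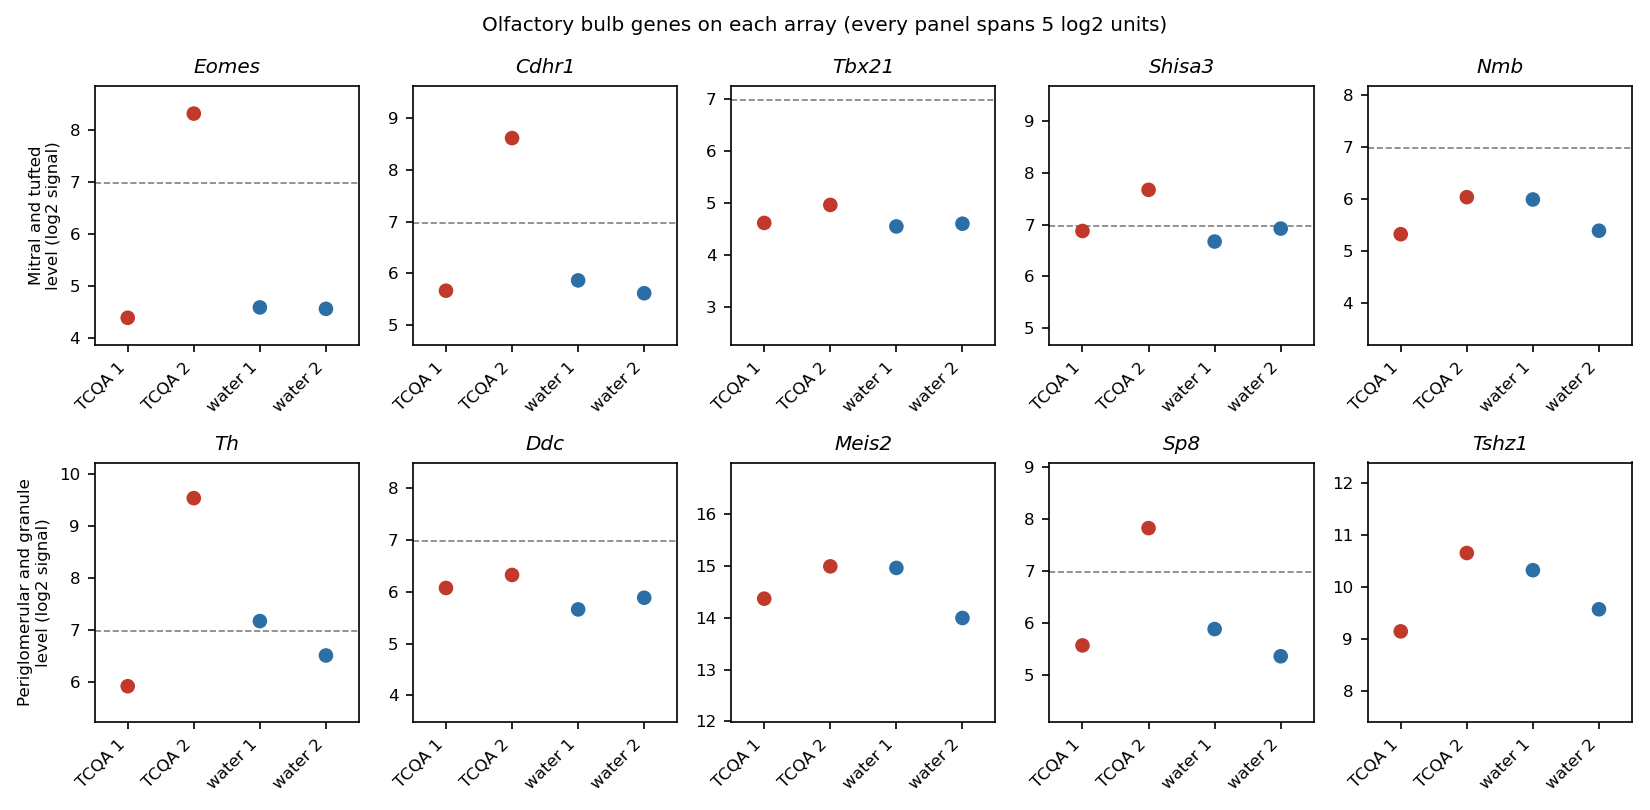
Level of the 10 bulb genes on each array (vertical axis, log2 signal, with the same span in every panel; horizontal axis, array), mitral and tufted genes above and periglomerular and granule genes below. Red points are TCQA arrays and blue points water arrays, each point is 1 array, and the dashed line is the negative control median of 6.98. TCQA 2 is the highest point in all 10 panels, by 3.74 in Eomes and by 0.03 in Meis2.

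Eomes, also called Tbr2, is a T-box transcription factor that mitral and tufted cells keep into adulthood. Its level was 8.32 in TCQA 2 and 4.38 in TCQA 1, against 4.58 in water 1 and 4.55 in water 2. The groups overlapped, TCQA 1 being the lowest array, and the other 3 arrays lay within 0.20 of each other, which is inside the spread between arrays of a group. TCQA 2 was 13.3-fold above the highest of them, the widest such distance of all 19572 transcript clusters. Since those 3 levels were dim, the fold is uncertain in size. The mean difference of TCQA from water was 1.78 (SE 1.11, n = 2 arrays per group), and without TCQA 2 it was -0.19.

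Cdhr1, a cadherin-related adhesion protein of mitral and tufted cell dendrites that photoreceptors also make, came next in that ranking. It measured 8.61 in TCQA 2 and 5.67 in TCQA 1, against 5.87 in water 1 and 5.62 in water 2. TCQA 2 was 6.69-fold above the highest other array, and the other 3, all dim, lay within 0.25 of each other. The group difference was 1.40 (SE 0.84), against -0.07 without TCQA 2.

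Tbx21, or T-bet, is a second T-box factor, which in the brain is largely limited to mitral and tufted cells. Its levels were 4.96 in TCQA 2 and 4.62 in TCQA 1, against 4.55 in water 1 and 4.60 in water 2. TCQA 2 exceeded the next array by 0.35, which is less than the spread of dim genes, and all 4 levels lay below the negative control median. The TCQA arrays lay above both water arrays, a pattern of 19.9% of all named transcript clusters, and the group difference was 0.22 (SE 0.21).

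Shisa3, a member of the Shisa family of endoplasmic reticulum and membrane adaptor proteins that is found in tufted cells, stood at 7.67 in TCQA 2 and at 6.88 in TCQA 1, against 6.67 in water 1 and 6.92 in water 2. TCQA 2 was the 1 array above the negative control median, 1.68-fold above water 2, a log2 distance of 0.75. The other 3 arrays did not differ beyond the spread, with a range of 0.25, and the groups overlapped. The group difference was 0.48 (SE 0.30) with all arrays, and 0.08 without TCQA 2.

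Nmb encodes neuromedin B, a peptide of the bombesin family that is expressed in mitral and tufted cells. It lay at 6.04 in TCQA 2 and 5.33 in TCQA 1, against 5.996 in water 1 and 5.39 in water 2, dim throughout. The second TCQA and the first water array were the higher ones, and no neighbours in this order differed beyond the spread. The group difference was -0.01 (SE 0.32).

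The promoters of 3 of the genes that stood furthest apart on TCQA 2, and that of Tbx21, the T-box relative of Eomes that did not, are shown for reference as the 250 bases before the RefSeq gene start on GRCm38.p6, 5′ to 3′ along each gene. RefSeq promoters of 9 of the 10 genes were searched, and Tshz1 was left out. Capitals mark matches on either strand to a T-box element (AGGTGTGA), a cAMP response element (TGACGTCA), a Meis site (TGACAG), a GC box (GGGCGG), a homeodomain site (TAATTA) and a TATA box (TATAAA).
Eomes promoter, chr9:118477939-118478188, plus strand: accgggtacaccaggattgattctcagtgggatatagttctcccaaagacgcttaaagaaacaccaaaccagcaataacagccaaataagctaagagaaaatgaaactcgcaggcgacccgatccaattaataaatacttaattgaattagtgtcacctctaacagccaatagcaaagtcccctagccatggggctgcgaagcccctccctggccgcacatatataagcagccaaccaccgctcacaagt
Cdhr1 promoter, chr14:37098348-37098597, minus strand: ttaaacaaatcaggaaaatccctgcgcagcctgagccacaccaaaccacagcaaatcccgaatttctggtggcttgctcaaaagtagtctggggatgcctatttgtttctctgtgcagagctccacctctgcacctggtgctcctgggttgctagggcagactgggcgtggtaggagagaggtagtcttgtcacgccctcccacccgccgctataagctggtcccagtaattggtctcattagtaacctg
Th promoter, chr7:142899996-142900245, minus strand: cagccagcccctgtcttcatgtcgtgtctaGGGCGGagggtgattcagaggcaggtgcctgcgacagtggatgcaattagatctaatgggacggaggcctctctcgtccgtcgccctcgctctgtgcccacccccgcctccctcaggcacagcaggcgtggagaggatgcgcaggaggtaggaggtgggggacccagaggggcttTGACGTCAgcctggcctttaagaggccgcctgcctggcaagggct
Tbx21 promoter, chr11:97115332-97115581, minus strand: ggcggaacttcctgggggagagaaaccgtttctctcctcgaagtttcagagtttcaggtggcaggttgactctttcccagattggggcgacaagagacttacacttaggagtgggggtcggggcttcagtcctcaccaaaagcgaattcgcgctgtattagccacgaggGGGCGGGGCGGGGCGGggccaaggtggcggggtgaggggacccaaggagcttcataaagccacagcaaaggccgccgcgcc
The window of Th held a cAMP response element between 45 and 38 bases before the start, a motif found in 1.55% of 32851 RefSeq promoter windows of the same length, and 1 GC box. That of Tbx21 held 3 GC boxes that overlap each other by a base, and 32.7% of all windows held at least 1. The windows of Eomes and Cdhr1 matched none of the 6 motifs, which says only that those letters do not occur there. The T-box element, present in 1.12% of all windows, occurred in none of the 4. Meis sites were found in 15.9% of all windows, homeodomain sites in 4.84% and TATA boxes in 12.4%.

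Th, tyrosine hydroxylase, carries out the rate-limiting step of dopamine synthesis and marks the dopaminergic periglomerular cells. It measured 9.54 in TCQA 2 and 5.92 in TCQA 1, against 7.17 in water 1 and 6.51 in water 2. The 2 TCQA arrays were the highest and the lowest of the 4, a 12.3-fold difference within the group, and TCQA 2 was 5.17-fold above water 1. In the order of levels, water 1 and water 2 differed by 0.66, within the spread, whereas water 1 and TCQA 1 differed by 1.26, beyond it. The group difference was 0.89 (SE 1.04) with all arrays and -0.92 without TCQA 2.

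Ddc encodes aromatic L-amino acid decarboxylase, the enzyme that turns the product of tyrosine hydroxylase into dopamine. Its levels were 6.32 in TCQA 2 and 6.07 in TCQA 1, against 5.66 in water 1 and 5.88 in water 2, all below the negative control median. TCQA 2 exceeded TCQA 1 by 0.25, within the spread of dim genes. The TCQA arrays lay above both water arrays, as in Tbx21, with a group difference of 0.43 (SE 0.21) and of 0.30 without TCQA 2.

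Sp8 is a zinc finger transcription factor needed for calretinin-positive and other bulb interneurons. It stood at 7.82 in TCQA 2 and at 5.56 in TCQA 1, against 5.88 in water 1 and 5.35 in water 2. TCQA 2 was 3.85-fold above the highest other array, while the other 3, all dim, lay within 0.52 of each other. The group difference was 1.08 (SE 0.67), against -0.05 without TCQA 2.

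Meis2 and Tshz1 are transcription factors of bulb interneurons that the striatum also uses, and of the 10 genes they were the ones above the negative control median on all 4 arrays. Meis2 measured 14.99 in TCQA 2 and 14.37 in TCQA 1, against 14.96 in water 1 and 13.99 in water 2. TCQA 2 and water 1 were nearly equal, and the widest distance among the 3 arrays other than TCQA 2 was that of water 1 from water 2, at 0.97. Tshz1, a teashirt zinc finger factor, measured 10.65 in TCQA 2 and 9.14 in TCQA 1, against 10.32 in water 1 and 9.57 in water 2. TCQA 2 exceeded water 1 by 0.33, within the spread of bright genes, and water 1 exceeded water 2 by 0.75, just beyond it. Group differences were 0.20 (SE 0.37) for Meis2 and -0.05 (SE 0.51) for Tshz1.

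TCQA was compared with water to find the cortical genes that the compound changes. With limma, a linear model fitted over all 19572 transcript clusters, 0 of the 10 bulb genes had an adjusted p under 0.05 after Benjamini-Hochberg adjustment, against 0.0% of all. At an unadjusted p under 0.05, 0 of the 10 were higher, against 3.48% of all, and 0 were lower, against 3.89%. When a change of over 2-fold was required as well, as the study did, 0 of the 10 met both criteria, against 0.664% in either direction and 0.245% higher. Nothing is read from these counts, since the choice of the genes used the same arrays. Differences of TCQA from water were positive for 8 of the 10, against 50.5% of all. Both TCQA arrays lay above both water arrays for 2 of the 10, against 19.9% of all, and below both for 0, against 19.2%. TCQA 1 taken alone lay below both water arrays for 4 of the 10, against 33.0% of all. The median difference was 0.48 over the 5 mitral and tufted genes and 0.43 over the 5 periglomerular and granule genes, against 0.003 over all transcript clusters. Without TCQA 2 these medians were -0.07 and -0.11, and without TCQA 1 they were 0.87 and 0.71, so TCQA 2 decides their size and sign.

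**Figure D2:**
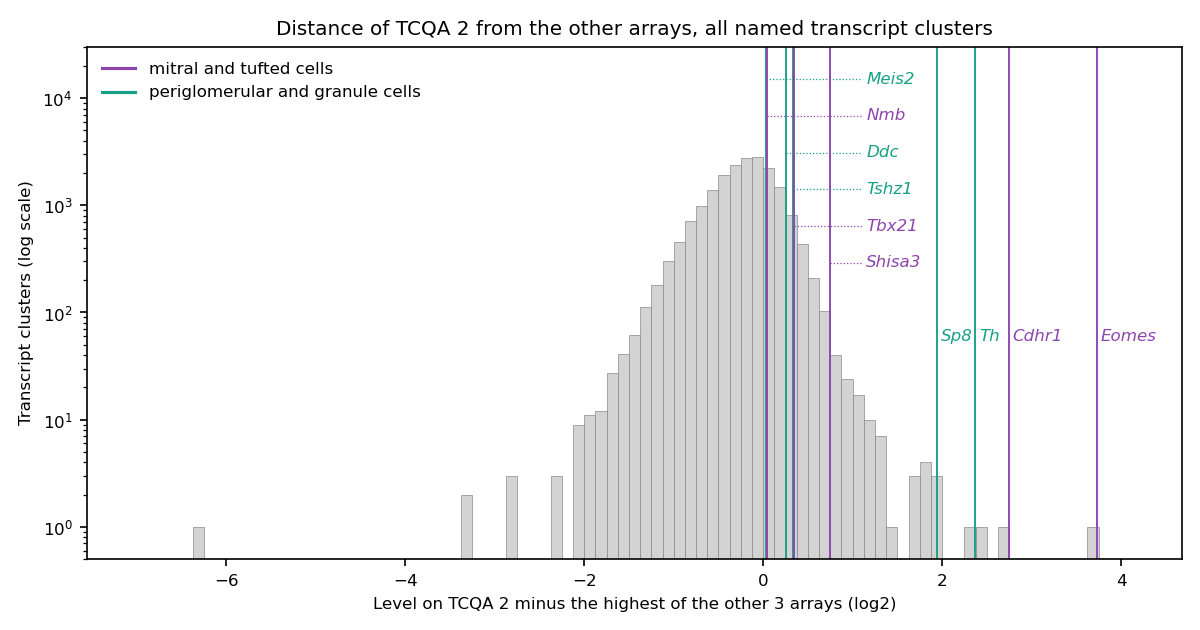
Histogram of all 19572 named transcript clusters by the level on TCQA 2 minus the highest of the other 3 arrays (horizontal axis, log2; vertical axis, number of transcript clusters on a log scale), with a vertical line for each of the 10 bulb genes. Eomes lies furthest right at 3.74, followed by Cdhr1 at 2.74, Th at 2.37 and Sp8 at 1.95, while the lines of the other 6 lie below 1.

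The arrays of a group were then set against each other. The median of TCQA 2 minus TCQA 1 was 0.79 over the mitral and tufted genes and 1.51 over the periglomerular and granule genes, against 0.001 over all transcript clusters. The median of water 1 minus water 2 was 0.03 and 0.66 for the same sets, against 0.007 over all. Water 1 lay above water 2 for 3 of the 5 mitral and tufted genes and for 4 of the 5 periglomerular and granule genes, against 50.8% of all transcript clusters. Among the periglomerular and granule genes the exception was Ddc.

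**Figure D3:**
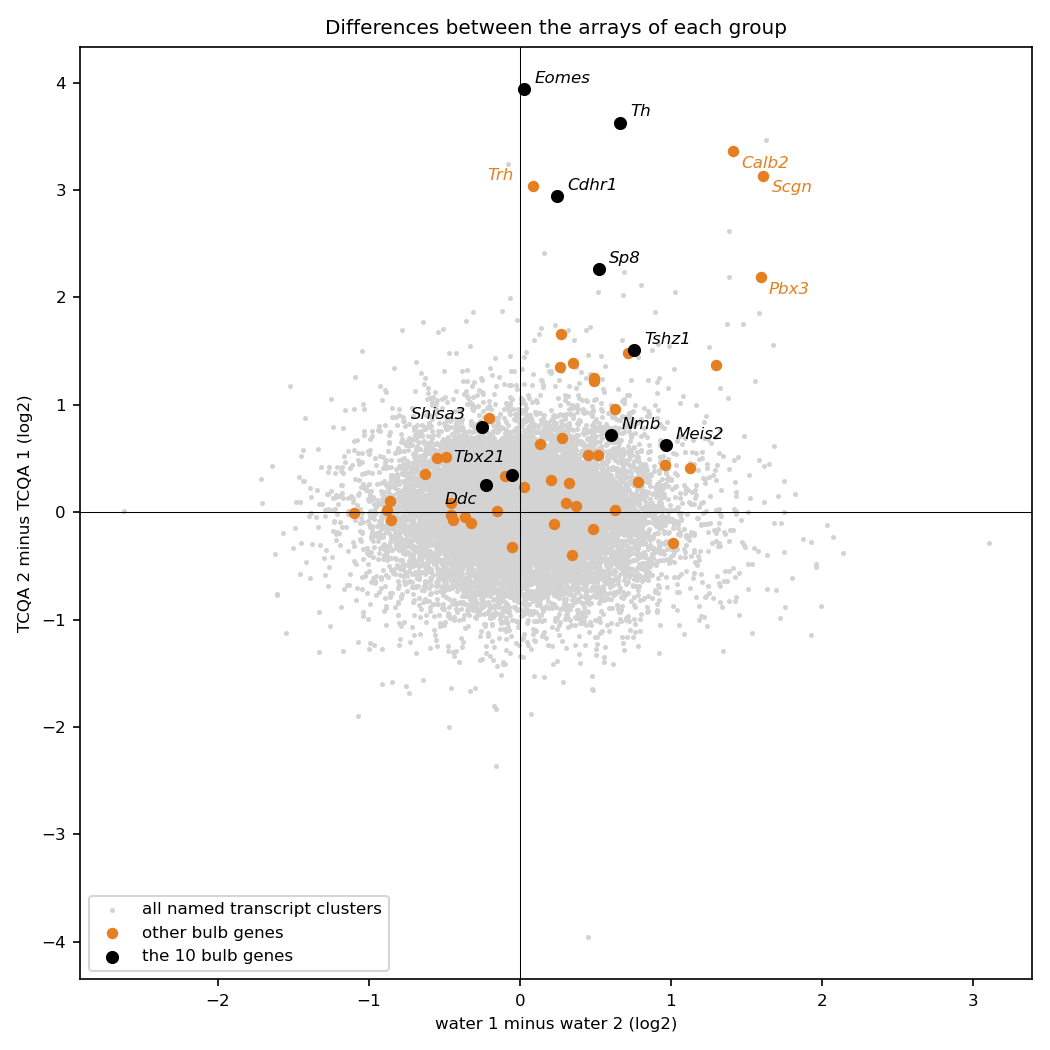
Differences between the arrays of each group, water 1 minus water 2 (horizontal axis, log2) against TCQA 2 minus TCQA 1 (vertical axis, log2), for all named transcript clusters (grey), the 10 bulb genes (black) and 45 other bulb genes (orange). Eomes at 3.94 and Th at 3.63 have the largest TCQA differences among the bulb genes, and Calb2, Scgn and Pbx3 are high in both differences.

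Other genes of the bulb were listed apart from the 10, with results on some of them already known. Of 45 measured, 22 were highest on TCQA 2, against 27.4% of all transcript clusters, and 6 stood more than 1 above the next array there, against 0.25%. With limma 1 of the 45 was higher and 1 lower at an unadjusted p under 0.05, against 3.48% and 3.89% of all, and 0 passed after Benjamini-Hochberg adjustment. The median difference of TCQA from water was 0.14.

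Of 16 other mitral and tufted genes, many of which cortical neurons also use, 5 were highest on TCQA 2, near the 27.4% of all transcript clusters. Of the 16, 0 stood more than 1 apart there, against 0.25% of all. Tbr1, a T-box factor shared with deep-layer cortical neurons, lay at 13.85 in TCQA 2 and 13.83 in TCQA 1, against 12.79 in water 1 and 13.67 in water 2. Reln, the extracellular guidance protein reelin, lay at 9.48 in TCQA 2 and at 8.84 in TCQA 1, against 8.90 in water 1 and 8.76 in water 2. The groups overlapped in Reln and not in Tbr1, and neither they nor Nr2f2, a nuclear receptor, and Piezo2, a mechanosensitive channel, passed the unadjusted threshold, with differences of 0.61, 0.33, -0.43 and -0.45 in that order. Piezo2 was dim on all arrays. The defining factors Lhx1 and Lhx5 were dim as well, with levels between 3.74 and 4.07 for Lhx1 and between 2.68 and 2.82 for Lhx5.

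Of 15 other periglomerular genes, 9 were highest on TCQA 2 and 3 of them stood more than 1 apart, against 27.4% and 0.25% of all transcript clusters. Scgn, the calcium sensor secretagogin, lay at 8.73 in TCQA 2 and 5.60 in TCQA 1, against 6.80 in water 1 and 5.18 in water 2. Trh, the precursor of thyrotropin-releasing hormone, lay at 8.22 in TCQA 2 and 5.19 in TCQA 1, against 6.52 in water 1 and 6.43 in water 2. Calb2, the calcium-binding protein calretinin, exceeded the next array by 1.79 in TCQA 2. TCQA 1 was the lowest array for Trh and Calb2, and water 2 was for Scgn. Scgn and Trh were dim on every array but TCQA 2.

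The enzymes and transporters that go with tyrosine hydroxylase showed smaller distances. Gch1, which makes the cofactor of tyrosine hydroxylase, lay at 5.63 in TCQA 2 and 5.10 in TCQA 1, against 4.98 in water 1 and 4.46 in water 2, and Slc18a2, the vesicular monoamine transporter, at 6.48 and 6.18 in the TCQA arrays, against 6.18 and 5.97 in the water arrays. Slc6a3, the dopamine transporter, was lowest in water 1, with levels between 3.71 and 4.57, and like Gch1 and Slc18a2 it was dim on all arrays. Nr4a2, a nuclear receptor of dopamine neurons and of deep cortical layers, was the 1 gene of this set with an unadjusted p under 0.05 by limma, at a difference of 0.63 (SE 0.22). It stood at 11.42 in TCQA 2 and 11.45 in TCQA 1, against 10.58 in water 1 and 11.03 in water 2. Etv1, an ETS factor, differed by 0.43 and was highest in TCQA 2.

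Of 14 other granule cell genes, 8 were highest on TCQA 2 and 3 of them stood more than 1 apart, against 27.4% and 0.25% of all transcript clusters. Dlx1 and Dlx2, homeobox factors of GABAergic neurons, lay at 9.42 and 8.33 in TCQA 2 and at 7.76 and 6.94 in TCQA 1. Their levels were 8.11 and 7.05 in water 1 and 7.83 and 6.70 in water 2, so that the other 3 arrays lay close together. Synpr, the synaptic vesicle protein synaptoporin, lay at 14.95 in TCQA 2 and 13.70 in TCQA 1, against 13.93 in water 1 and 13.44 in water 2. Pcp4, a calmodulin-binding peptide that the striatum also makes, was lower in TCQA at -0.61 (SE 0.21), the 1 gene of this set with an unadjusted p under 0.05 by limma. Penk, the enkephalin precursor, differed by -0.54 and was highest in water 1.

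Further lists covered the cells that accompany bulb neurons. Highest on TCQA 2 were 6 of 13 neuroblast, 4 of 12 olfactory nerve and 5 of 12 ensheathing glia genes, against 27.4% of all transcript clusters. More than 1 apart there were 2, 1 and 1 of them in that order, against 0.25% of all. Nothing is read from these counts, since the lists were chosen with results of these data known. Over all transcript clusters, 3.48% were higher and 3.89% lower at an unadjusted p under 0.05 by limma. Among 13 neuroblast genes Dcx, the microtubule protein doublecortin, stood at 10.93 in TCQA 2 and 9.86 in TCQA 1, against 9.55 in water 1 and 9.89 in water 2. Cd24a, a surface glycoprotein of neuroblasts, was likewise more than 1 above the next array, and it was dim on every array but TCQA 2. The proliferation genes Mki67, Top2a and Cdk1 were dim on all arrays. Of the 13 genes 1, Sox11, was higher at an unadjusted p under 0.05 by limma (0.48, SE 0.20), while Sox4, dim on all arrays, differed by -0.36.

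Among 12 genes of olfactory nerve axons, Stoml3, a stomatin-like protein of olfactory sensory neurons, stood at 7.12 in TCQA 2 and 5.10 in TCQA 1, against 5.20 in water 1 and 4.52 in water 2. Omp, the olfactory marker protein, lay below the negative control median on all 4 arrays, at 4.08 in TCQA 2 and 3.64 in TCQA 1, against 3.82 in water 1 and 3.58 in water 2. S100a5, a calcium-binding protein of sensory neurons, differed by 0.89 (SE 0.26), the 1 gene of the list with an unadjusted p under 0.05 by limma. S100a5 was dim on all 4 arrays, and Stoml3 was dim on every array but TCQA 2. Gap43 and Rtp1 differed by -0.20 each, and Rtp1 was dim on all 4 arrays.

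Among 12 genes of olfactory ensheathing glia, Fabp7, the brain lipid-binding protein that astrocytes also make, stood at 15.47 in TCQA 2 and 13.06 in TCQA 1, against 13.70 in water 1 and 13.54 in water 2. Mybpc1 was higher at an unadjusted p under 0.05 by limma (0.60, SE 0.21), and Gfra2, Matn4 and Sox10 differed by 0.84, 0.40 and -0.41. Matn4 and Sox10 were dim on all arrays.

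Th and Ddc also mark dopamine neurons of the midbrain and, with Dbh, noradrenaline cells. Of 13 midbrain dopamine genes 0 were highest on TCQA 2, against 27.4% of all transcript clusters. Of the same 13, 9 lay below the negative control median on all 4 arrays, as did 9198 of all 19572 transcript clusters. Their mean was 5.85 in TCQA 2 and 6.06 in TCQA 1, against 6.32 in water 1 and 5.93 in water 2. The defining factor Pitx3 lay between 3.06 and 3.34, and En1 between 4.96 and 5.23. Drd2, which striatal neurons share, was highest in water 1 at 12.63, and Aldh1a1 was the 1 gene of the list higher at an unadjusted p under 0.05 by limma (0.55, SE 0.22), while Chrna6, Lmx1a and Lmx1b differed by -0.48, -0.57 and -0.40. All 5 measured genes of noradrenaline and adrenaline cells lay below the negative control median on all 4 arrays. Of the 5, Dbh was higher (0.71, SE 0.22) and Slc6a2 lower (-0.76, SE 0.24) at an unadjusted p under 0.05 by limma. The shares of all transcript clusters were 3.48% and 3.89%. Hand2 and Pnmt differed by -0.18 and 0.27.

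**Figure D4:**
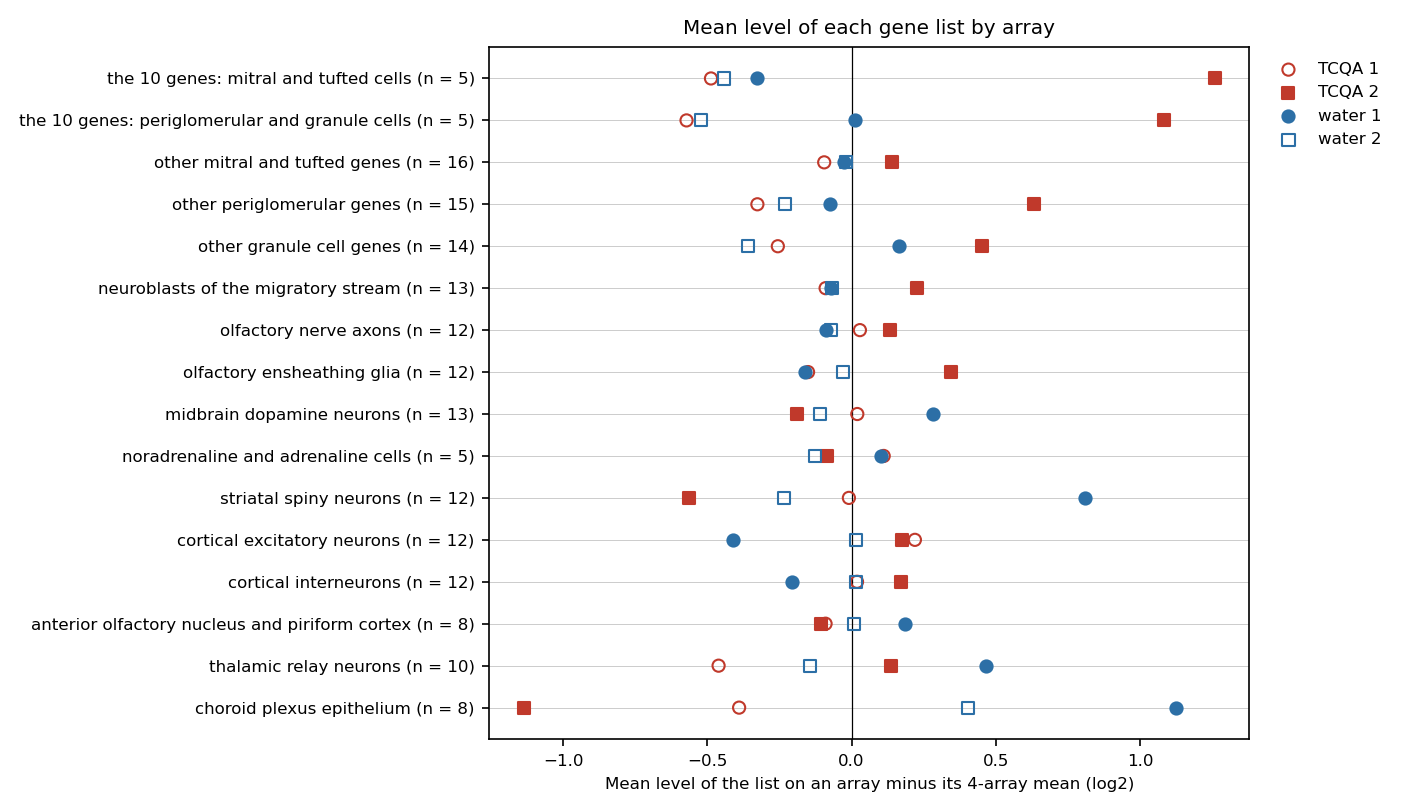
Mean level of each gene list on each array minus the mean of that list over the 4 arrays (horizontal axis, log2), for the 10 bulb genes in their 2 groups and 14 other lists (rows, with the number of measured genes). Red symbols are TCQA arrays and blue symbols water arrays, 1 symbol per array. TCQA 2 is the highest array for both groups of the 10 genes, the 3 lists of other bulb genes, and the neuroblast, olfactory nerve, ensheathing glia and cortical interneuron lists. It is the lowest for the striatal, choroid plexus, midbrain dopamine and anterior olfactory nucleus lists, the last of these at 9.93 in TCQA 2 and 9.94 in TCQA 1. In the olfactory nerve list 4 of 12 genes are highest on TCQA 2, against 27.4% of all transcript clusters. The median of TCQA 2 minus TCQA 1 in that list is 0.004, and Stoml3 alone stands more than 1 above the next array there.

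Markers of neighbouring tissue moved with the arrays too, and their part in the levels of the bulb genes was not tested. Striatal spiny neurons, which share Meis2 and Tshz1, had a mean of 10.9 in TCQA 2 and 11.5 in TCQA 1, against 12.3 in water 1 and 11.2 in water 2 over 12 measured genes. Of these 0 were highest on TCQA 2, and Drd1, Adcy5, Rgs9, Ppp1r1b and Isl1 stood more than 1 above the next array in water 1, as did Prkcd of the thalamic list and Kl, Clic6 and Otx2 of the choroid plexus list. Choroid plexus epithelium had a mean of 7.25 in TCQA 2 and 7.998 in TCQA 1, against 9.51 in water 1 and 8.79 in water 2 over 8 measured genes. Of these 5 were lower at an unadjusted p under 0.05 by limma, against 3.89% of all transcript clusters. Their differences were -1.93 for Kcnj13, -2.01 for Folr1, -1.97 for Kl, -4.06 for Ttr and -1.05 for Otx2, which was dim on all 4 arrays. Thalamic genes had means of 8.58 and 7.98 in TCQA 2 and TCQA 1, against 8.91 and 8.30 in water 1 and water 2. The thalamic list includes Calb2, also listed as a periglomerular gene, so its mean in TCQA 2 rests in part on that gene. Calb2 stood at 11.27 in TCQA 2 and 7.91 in TCQA 1, against 9.47 in water 1 and 8.06 in water 2. Genes of the anterior olfactory nucleus and piriform cortex, the regions next to the bulb, had means between 9.93 and 10.2. Cortical interneuron genes had means of 9.71 and 9.56, against 9.34 and 9.56. Highest on TCQA 2 were 2 of 8 genes of the regions next to the bulb and 3 of 12 interneuron genes, both near the 27.4% of all transcript clusters. Over all transcript clusters, 3.48% were higher and 3.89% lower at an unadjusted p under 0.05 by limma, and 0 passed after Benjamini-Hochberg adjustment. At that unadjusted threshold, 3 of 12 cortical excitatory genes and 1 of 12 interneuron genes were higher, and 3 of 10 thalamic genes were lower. Of 8 genes of the regions next to the bulb 1 was higher and 1 lower, and 0 of 12 striatal genes passed. The excitatory genes that passed were Nr4a2, Fezf2, a factor of deep-layer neurons (1.17, SE 0.46), and the nuclear receptor Rorb (0.54, SE 0.22), which is also the higher gene of the regions next to the bulb, while Rasgrf2 differed by 0.36. The interneuron gene was Lhx6, a LIM homeobox factor (0.90, SE 0.26), and Htr3a, Vip and Lamp5 differed by 0.97, 0.90 and 0.47. Next to the bulb the lower gene was Nrp2, a semaphorin receptor (-0.84, SE 0.28), and Htr2c and Slc6a7 differed by -0.78 and -0.20. The thalamic genes were Synpo2, Tcf7l2 and Prkcd at -0.71, -0.86 and -1.99, with Plekhg1 at -0.64, and the striatal Pde10a differed by -0.59. Synpo2 and Htr3a were dim on all arrays.

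The genes whose 4-array pattern was most like that of Eomes were found by the root mean square distance between levels centred on each gene's own mean, over all named transcript clusters outside the 10. The nearest was Frmd7, a FERM-domain protein, at a distance of 0.61, with levels of 8.88 in TCQA 2 and 5.41 in TCQA 1, against 6.50 in water 1 and 4.86 in water 2. It was followed by Scgn (0.70), Calb2 (0.72), Lgr5 (0.75), Stoml3 (0.76), Fabp7 (0.78), Cpa6 (0.79) and Ms4a15 (0.82). Nearest to Th were Calb2 (0.28), Scgn (0.40), Cpa6 (0.42), Trh (0.44), Frmd7 (0.45), Fabp7 (0.48), Lgr5 (0.49) and Stoml3 (0.60). The 2 sets of 8 shared 7 genes, and 5 of the 9 names in all belonged to a bulb or companion list. Nothing is read from these counts, since Eomes and Th lay only 0.51 apart themselves and the lists were chosen with results of these data known.

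Among the 10 themselves, Cdhr1, Th and Sp8 lay within 0.41, 0.51 and 0.71 of Eomes, and the other 6 between 1.28 and 1.49. In all, 49 transcript clusters, 0.25% of all, stood more than 1 above every other array on TCQA 2. The same count was 9 for TCQA 1, 58 for water 1 and 12 for water 2. Of the 49, 4 were among the 10 bulb genes, 10 belonged to the other lists and 35 to no list. Nothing is read from this division, since the genes and lists were chosen with results of these data known.

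**Figure D5:**
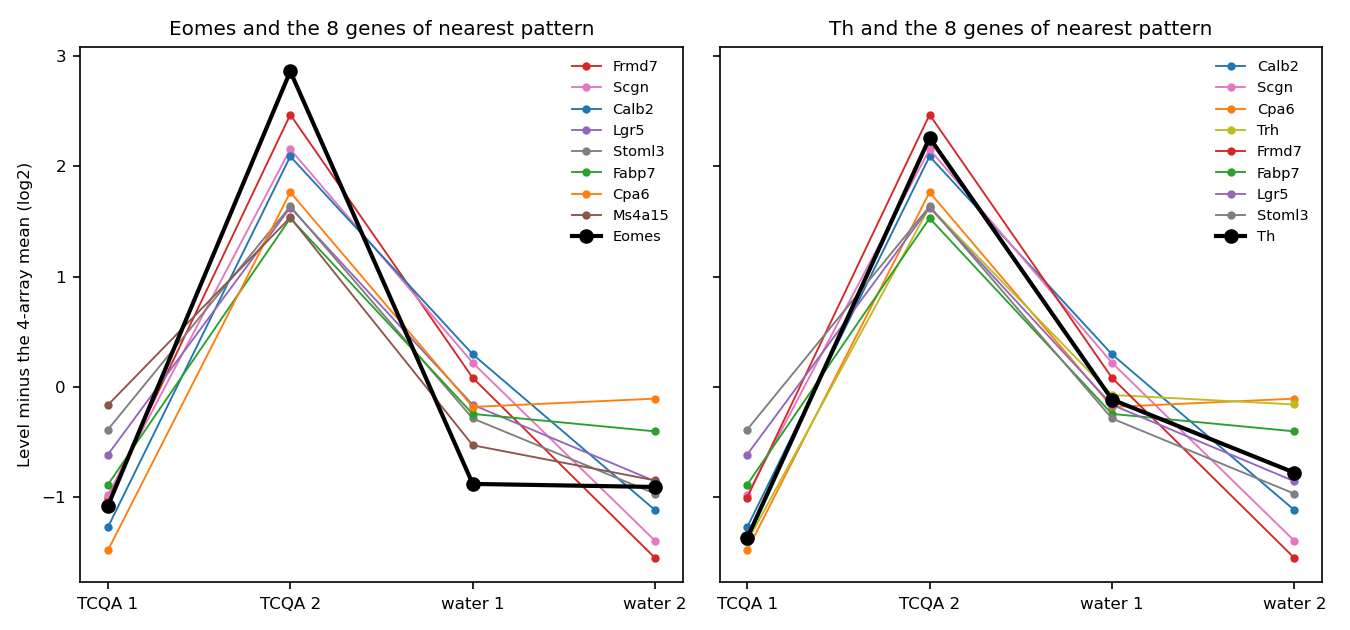
Level minus the 4-array mean (vertical axis, log2) on each array (horizontal axis) for Eomes (left, black) and Th (right, black) with the 8 genes of nearest pattern in colour; lines join the values of a gene and stand for no order in time. All genes shown peak on TCQA 2, and the water 1 level of Eomes is lower, relative to its mean, than that of Th.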

How the data were processed

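RNA of brain cortex was measured on 4 Clariom S mouse arrays, 2 per group, from 100 ng of RNA each per the labels' protocols. Per the series' design text, the authors used Transcriptome Analysis Console 4.0.2 and its signal space transformation RMA to make the deposited log2 signals. RMA and limma also stand in the submitters' processing notes. The array annotation's genome build was not given in the sources used here. Such values carry no depth, and precision is limited by the number of arrays.

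The value table holds 28846 rows. The platform annotation gives 1 symbol for 19572 of them (19505 genes), several for 0 and none for 9274, controls included. TCQA was compared with water by limma 3.58.1 (lmFit, eBayes, 2-sided moderated tests) in R 4.3.3 over the 19572, with Benjamini-Hochberg adjustment, and tested on simulated data. Promoters came from RefSeq on GRCm38.p6, and figures from matplotlib 3.10.9.

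The 10 genes and all lists were chosen with earlier results of these data known. The spread between arrays, the distance of over 1, the promoter motifs and the 4 promoters printed were chosen after levels were seen, as was counting any change of sign as a reversal. Of each list the text names up to 4 genes with the smallest p and those with 1 array more than 1 above the next, beside all 10 bulb genes. Lhx1, Lhx5, Slc6a3, Omp, Pitx3, En1, Mki67, Top2a, Cdk1 and Pbx3 were named after their values were seen. Alternatives covered each array left out, normalization, centring, dim-signal filters, the prior, array weights, a replicate block and rows averaged per symbol.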

Additional observations from a re-analysis of the deposited data

How the results depend on the processing

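Leaving out 1 array decided the direction of several bulb gene differences. Without TCQA 2 the medians were -0.075 (mitral and tufted) and -0.110 (periglomerular and granule), and their highest values with another array left out were 0.872 and 0.708. Over the 4 such fits the lowest and highest values were -0.186 and 3.75 for Eomes, -0.075 and 2.87 for Cdhr1, -0.924 and 2.70 for Th and -0.053 and 2.21 for Sp8, lowest without TCQA 2 and highest without TCQA 1. Meis2 was lowest at -0.281 without water 2, highest at 0.684 without water 1 and at -0.110 without TCQA 2. Nmb (-0.368) and Tshz1 (-0.802) were lowest without TCQA 2, and without TCQA 1 and water 1 they stood at 0.346 and 0.290 (Nmb) and at 0.708 and 0.330 (Tshz1). Nmb was 0.044 under quantile normalization. The cause was not tested. Of 69 values of the 10 genes under settings that keep all arrays, 68, all but that of Nmb, kept their sign and moved by under 1 SD between arrays. Most of the 69 could not have moved, so the count says little. Only quantile normalization and centring can change a gene's difference in this design, and the other settings repeat the main value. The dim-signal filters drop some of the 10 genes. At the negative control median, 2 mitral and tufted genes were left, Cdhr1 and Shisa3, with a median of 0.936. Both reached that level on TCQA 2 alone, so the filter kept them through the array described here, and nothing is read from the larger median. Over the 3 periglomerular and granule genes left by either filter the median was 0.201. The count of transcript clusters past the study's criteria was 130, and lay between 218 and 428 with 1 array left out, where the lone array of a group is assumed to vary like the other group. It was 56 and 44 under the filters at the negative control median and at the upper 50 percent of signal, which test fewer transcript clusters, and 130 with the replicate number as a block. The labels' numbers do not pair the arrays, with a correlation of deviations of -0.003 between same-numbered arrays. Adjusted calls numbered 0 in every setting run except without TCQA 1, where limma gave 2. Of the 10 genes 7 were dim on 3 or more arrays, which limits what their folds can show.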
